A study of Homo sapiens with 6 samples.

Results

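The 10 genes described here encode transcription factors and co-factors of the erythroid and megakaryocytic lineages: GATA1, GATA2 and the GATA co-factor ZFPM1, the basic helix-loop-helix factors TAL1 and LYL1 with their adaptor LMO2, and KLF1, NFE2, GFI1B and BCL11A. They were matched by symbol in the deposited count files, and all 10 were found among 60609 genes. They were measured by stranded poly(A) RNA-seq in 6 libraries of K562, an established human leukaemia line with erythroid and megakaryocytic features. In both groups the endogenous EP400, the scaffold and motor subunit of the TIP60 complex, carries a homozygous C-terminal FKBP12F36V-2xHA degradation tag, and all cells received 500 nM dTAGV-1, the degrader of the tagged protein, for 24 h. The WT group (3 libraries) expressed exogenous wild-type EP400 from AAVS1, and the Delta-TRRAP group (3 libraries) expressed from the same locus EP400 lacking the SANT and HD domains that hold TRRAP. Each line was 1 clone, so clone and genotype cannot be told apart.

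GATA1 and GATA2 bind the same short DNA element, and GATA2 gives way to GATA1 at many genes as erythroid precursors mature. TAL1 or LYL1 pairs with an E protein such as TCF3, and LMO2 with LDB1 joins this pair to a GATA factor. KLF1 drives adult globin and red cell membrane genes, NFE2 pairs with small MAF proteins and is needed for platelet formation, and GFI1B and BCL11A are repressors that recruit LSD1 or NuRD.

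The libraries held 35076835 to 42616061 counts in genes. EP400, the edited gene, had normalized counts of 4897, 4897 and 5377 in WT and 5533, 6833 and 4357 in Delta-TRRAP, a log2 fold change (Delta-TRRAP over WT, as throughout) of 0.14 ± 0.11 (SE; edgeR adjusted p 0.272). Leaving out Delta-TRRAP replicate 3 gave 0.29 (adjusted p 0.00149), and leaving out Delta-TRRAP replicate 2 gave -0.026 (adjusted p 0.768). Counts per gene do not separate the tagged endogenous EP400 from the copy expressed from AAVS1, so the levels of the 2 were not compared. TRRAP differed by 0.05 ± 0.11 (adjusted p 0.713), and KAT5, the acetyltransferase of TIP60, by -0.28 ± 0.05 (adjusted p 0.000163), or by -0.14 with library size scaling, where it did not pass (adjusted p 0.01985). The mitochondrial share of counts was 3.18% to 3.71% (WT) and 5.07% to 6.24% (Delta-TRRAP).

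The labels call the cells lymphoblasts. The 6 lymphoid markers summed to 1.64 to 1.86 CPM (counts scaled to library size) in WT and 1.11 to 1.55 in Delta-TRRAP, with MS4A1 at 0 and CD3E at 17.0 ± 3.94 normalized counts in WT (SD, n = 3). The 8 erythroid markers, led by the transferrin receptor gene TFRC and ALAS2, the gene of the erythroid aminolevulinate synthase that opens haem synthesis, had a summed level of 5346 to 5396 CPM in WT libraries and of 3327 to 3558 CPM in Delta-TRRAP libraries. The 6 megakaryocyte markers summed to 18.5 to 20.1 CPM (WT) and 4.51 to 5.29 CPM (Delta-TRRAP). Of them 4, among them GP9 and PF4, were at 0 in every library, and all counts came from the integrin genes ITGA2B and ITGB3. ITGA2B had 661 ± 31.6 normalized counts in WT and 89.3 ± 14.4 in Delta-TRRAP, whereas ITGB3 had 87.1 ± 4.88 and 97.8 ± 5.96. The log2 fold change of ITGB3 was 0.17 ± 0.13 (edgeR adjusted p 0.253). Myeloid markers, led by CD33 and CSF3R and with ELANE at 0, summed to 34.7 to 35.8 CPM (WT) and 21.9 to 23.7 CPM (Delta-TRRAP), nearly all of it CD33. Of 5 myeloid markers tested, 1 was called (20%, against 22.6% of all genes tested), and it went the other way. It was MPO, named after its values were seen. MPO went from 1 count over the WT libraries to 58 over the Delta-TRRAP libraries (log2 fold change 5.42 ± 0.62, edgeR adjusted p 1.5e-06). Of the 10 fibroblast markers 5 were tested, of which 3 were called higher (60%, against 16.5% of all genes tested). The sum of the 10 was 0.937 to 1.49 CPM (WT) and 24.0 to 25.5 CPM (Delta-TRRAP). LUM and PDGFRA were at 0, and nearly all of that sum was COL1A2, a collagen gene at 1.62 ± 1.99 normalized counts in WT and 876 ± 45.1 in Delta-TRRAP, whereas COL1A1 had 28.7 ± 10.4 and 30.05 ± 9.71. Besides COL1A2, PDGFRB and POSTN were called, at only 9.34 ± 1.21 and 16.8 ± 5.39 normalized counts in Delta-TRRAP. Both were named after their values were seen. The sums of all 5 lists differed between the groups with no overlap, and their part in the results below was not tested. In bulk RNA, fewer cells of a type and less RNA per cell cannot be told apart.

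The promoters of 8 of the 10 genes were given in RefSeq (GRCh38.p14), with 15 start sites in all. The GATA motif was searched in the 250 bases before each start as AGATAA and the variants with T as the opening letter, G as the last letter, or both, on both strands. It was present before 4 of the 15 starts, in TAL1, KLF1, LYL1 and GFI1B, and before 22.3% of 35116 promoters of all genes. The whole window is shown for TAL1, the factor gene with the largest rise, and for KLF1, the only one with 2 matches in 1 window, a number reached or passed by 4.96% of all promoters. Capitals mark the motif in the printed 5′ to 3′ direction of the gene, where a match on the other strand reads as its reverse complement. The TAL1 window is chr1:47232336-47232585 and the KLF1 window chr19:12887202-12887451, both on the minus strand, and no annotated exon overlaps either.
TAL1: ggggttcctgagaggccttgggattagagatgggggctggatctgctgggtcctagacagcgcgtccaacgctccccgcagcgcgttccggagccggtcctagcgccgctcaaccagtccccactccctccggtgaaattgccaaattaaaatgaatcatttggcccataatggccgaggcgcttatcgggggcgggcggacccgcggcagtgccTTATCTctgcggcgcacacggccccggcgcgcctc
KLF1: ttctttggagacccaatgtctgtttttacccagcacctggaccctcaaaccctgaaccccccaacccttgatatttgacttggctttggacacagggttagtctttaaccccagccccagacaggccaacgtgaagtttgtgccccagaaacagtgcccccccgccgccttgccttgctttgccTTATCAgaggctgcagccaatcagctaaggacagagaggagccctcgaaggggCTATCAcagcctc
The TAL1 match begins 35 bases before the start, and the KLF1 matches begin 66 and 13 bases before it. For LYL1 (within chr19:13102859-13103108, minus strand) and the second GFI1B start (within chr9:132978444-132978693, plus strand) 30 bases around the match are shown, which begin 39 and 128 bases before the start.
LYL1: cagccaggctccTTATCAggcgcggccagg
GFI1B: cctggaaagtttTGATAAgcaaatacggct
No form of the motif was found in the windows of GATA1, GATA2, ZFPM1 and BCL11A. The E-box forms CAGATG and CAGCTG, searched the same way, were present before 3 of the 15 starts (1 of GATA2 and 2 of GFI1B) and before 24.3% of all promoters. A match in these letters is not evidence of binding.

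A gene passed the test at an adjusted p of 0.01 or less, and was called changed if its fold change was also at least 2, both with the edgeR quasi-likelihood test and Benjamini-Hochberg adjustment over 19114 genes. Of all genes tested, 22.6% were called changed, 16.5% higher and 6.08% lower in Delta-TRRAP. The p-value alone was passed by 58.3%, with 30.7% higher and 27.6% lower. Among the 9 factor genes with enough counts to test, LMO2 alone was called changed. On the p-value alone 4 rose (TAL1, NFE2, GATA2 and ZFPM1), 3 fell (LMO2, GFI1B and GATA1), and KLF1 and LYL1 did not pass. For each of the 9 the WT and Delta-TRRAP values lay apart with no overlap, as for 71.1% of all genes tested. The median log2 fold change of the 9 was 0.11, against 0.03 over all genes tested. All but ZFPM1 averaged 1000 normalized counts or more, and of the 6804 genes at that level, 6.31% were called changed and 68.0% passed the p-value, with a median of -0.14.

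**Figure D1:**
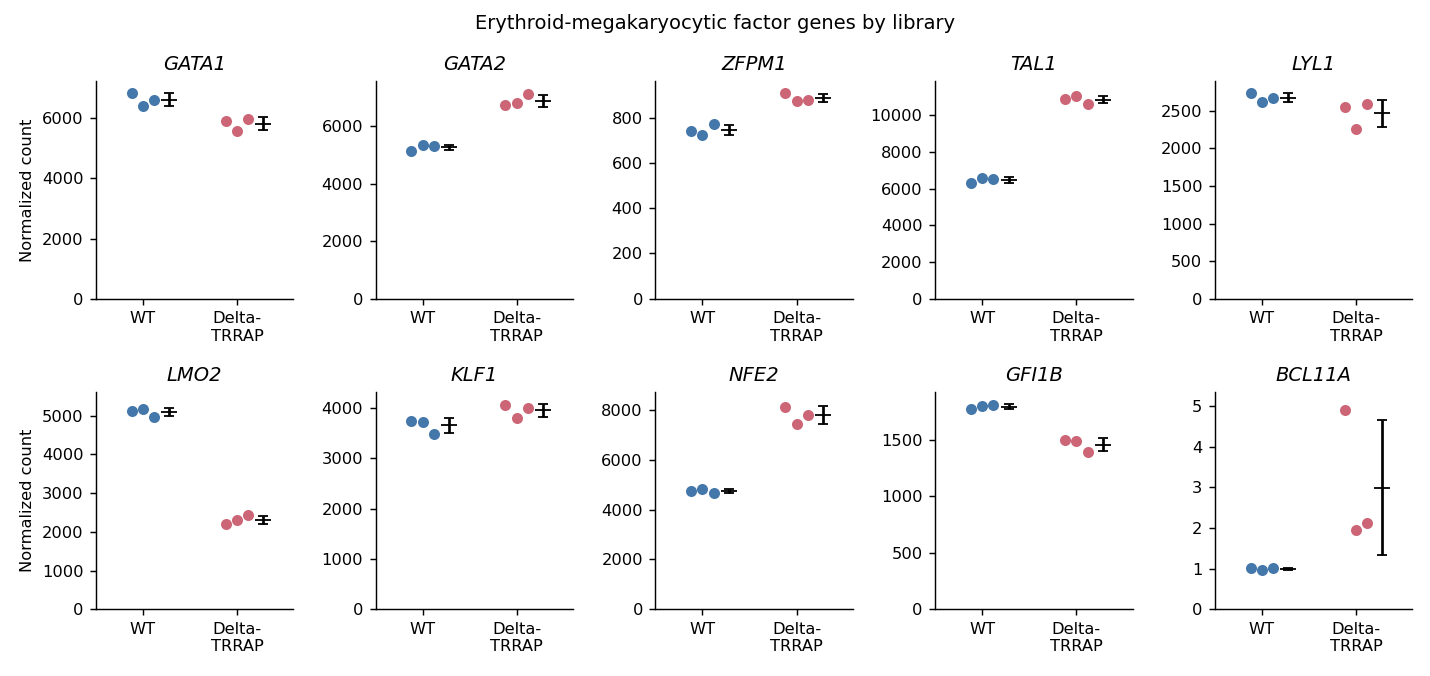
Normalized counts (vertical axes, each from 0) of the 10 factor genes in 3 WT and 3 Delta-TRRAP libraries, 1 point per library, with the mean and SD beside them. LMO2 lies at 4964 or more in every WT library and at 2428 or less in every Delta-TRRAP library, TAL1 and NFE2 are higher in Delta-TRRAP, and BCL11A has at most 5 counts in any library.

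The GATA factors moved in opposite directions by small amounts. GATA1 (ENSG00000102145.14, GRCh38 chromosome X, 48786540 to 48794311, plus strand) encodes the factor without which erythroid precursors do not mature. Its normalized counts were 6824, 6388 and 6603 in WT and 5897, 5575 and 5972 in Delta-TRRAP. The lowest WT library lay above the highest Delta-TRRAP library. Its log2 fold change was -0.18 ± 0.05 (95% interval -0.293 to -0.0745; edgeR adjusted p 0.00505). This is a fold of 0.880, and the p-value was lost in 7 of 14 alternative fits. The adjusted p (edgeR) was 0.0226 without WT replicate 1, 0.0141 without WT replicate 3, 0.0153 without Delta-TRRAP replicate 1, 0.0192 without Delta-TRRAP replicate 2, and 0.0117 with the replicate number as a block. With scaling to library size alone, which raised the median of all genes tested by 0.137, the GATA1 change was -0.05 (adjusted p 0.402), and with upper quartile scaling, which raised it by 0.101, it was -0.08 (adjusted p 0.187).

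GATA2 (ENSG00000179348.11, chromosome 3, 128479427 to 128493201, minus strand) acts in stem and progenitor cells and in megakaryocytes. It had normalized counts of 5157, 5337 and 5301 in WT and 6731, 6817 and 7117 in Delta-TRRAP. All Delta-TRRAP libraries were higher, by more than the spread within either group. This was a log2 fold change of 0.39 ± 0.05 (95% interval 0.283 to 0.492; edgeR adjusted p 4.38e-06). The noncoding gene GATA2-AS1 overlaps GATA2 on the opposite strand and was counted apart from it by strand. GATA2-AS1 had normalized counts of 1118, 1132 and 1122 in WT and 1788, 1803 and 1751 in Delta-TRRAP, a log2 fold change of 0.66 ± 0.05 (edgeR adjusted p 1.3e-08). Both genes of the pair thus rose.

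The ratio of the GATA counts within a library does not depend on the scaling. GATA1 counts were 1.32, 1.20 and 1.25 times the GATA2 counts in WT and 0.876, 0.818 and 0.839 times in Delta-TRRAP. GATA1 was the more counted of the pair in every WT library and GATA2 in every Delta-TRRAP library, on counts not divided by gene length. The log2 ratio differed by -0.57 between the groups, a fold of 0.673, and a two-sided exact permutation test gave p = 0.1, the smallest that 3 against 3 libraries allow. ZFPM1 (ENSG00000179588.9, chromosome 16, 88453280 to 88537031, plus strand), also named FOG1, is the co-factor that GATA1 needs for megakaryocyte and erythroid development. Its normalized counts were 740, 724 and 771 in WT and 906, 872 and 877 in Delta-TRRAP, with no overlap of the groups. The fitted log2 change was 0.25 ± 0.06 (adjusted p 0.00122 by edgeR). Without WT replicate 2 it was 0.22 (adjusted p 0.0131) and without Delta-TRRAP replicate 1 it was 0.23 (adjusted p 0.01004).

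**Figure D2:**
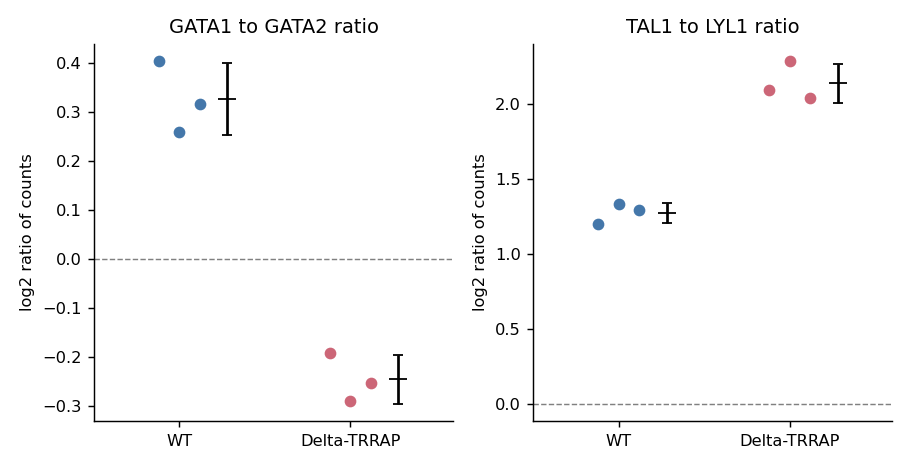
Log2 ratio of counts (vertical axes) of GATA1 to GATA2 and of TAL1 to LYL1 in each of 3 WT and 3 Delta-TRRAP libraries, 1 point per library, with the mean and SD, and equal counts at the dashed line. The GATA ratio lies above the line in all WT and below it in all Delta-TRRAP libraries, and the TAL1 to LYL1 ratio is higher in Delta-TRRAP by 0.86 on this scale.

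The TAL1 and LMO2 genes, whose proteins act in 1 complex, moved in opposite directions. TAL1 (ENSG00000162367.11, chromosome 1, 47216290 to 47232225, minus strand) is required to form all blood cells. It had normalized counts of 6278, 6599 and 6526 in WT and 10895, 11020 and 10619 in Delta-TRRAP. The groups lay far apart relative to their spread. Its log2 fold change was 0.75 ± 0.05 (95% interval 0.641 to 0.850; edgeR adjusted p 2.71e-09), a fold of 1.68. It passed the p-value and did not reach the fold threshold of 2.

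LMO2 (ENSG00000135363.12, chromosome 11, 33858576 to 33892076, minus strand) encodes the LIM-only adaptor of the complex. Its normalized counts were 5130, 5171 and 4964 in WT and 2207, 2300 and 2428 in Delta-TRRAP. Every Delta-TRRAP library was below every WT library, and the SD was 110 in WT and 111 in Delta-TRRAP. This was a log2 fold change of -1.14 ± 0.05 (95% interval -1.25 to -1.03; edgeR adjusted p 4.69e-11), a fold of 0.454. It was called changed in all 14 alternatives of tool, scaling, filter, block and left-out library that kept the thresholds, as the single factor gene called.

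LYL1 (ENSG00000104903.5, chromosome 19, 13099033 to 13103161, minus strand) is a paralogue of TAL1 that can partly stand in for it in progenitors. It had normalized counts of 2736, 2619 and 2671 in WT and 2556, 2262 and 2585 in Delta-TRRAP. The groups were close, with 2585 the highest Delta-TRRAP value and 2619 the lowest WT value. The log2 fold change of -0.12 ± 0.06 did not pass (95% interval -0.239 to 0.00594, adjusted p 0.0847 by edgeR), and with library size scaling its sign turned, to 0.017 (adjusted p 0.818). TAL1 counts were 2.29, 2.52 and 2.44 times the LYL1 counts in WT and 4.26, 4.87 and 4.11 times in Delta-TRRAP. The log2 ratio was higher in Delta-TRRAP by 0.86, a fold of 1.82, in 3 of 3 libraries (two-sided exact permutation p = 0.1, again the smallest possible).

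KLF1 (ENSG00000105610.5, chromosome 19, 12884422 to 12887201, minus strand) had normalized counts of 3750, 3722 and 3483 in WT and 4054, 3804 and 4004 in Delta-TRRAP. The groups did not overlap, but the lowest Delta-TRRAP value, 3804, was close to the highest WT value, 3750. The log2 fold change of 0.11 ± 0.05 did not pass (95% interval 0.00437 to 0.225, adjusted p 0.0615 by edgeR). It passed with upper quartile scaling (0.22, adjusted p 0.00239) and with library size scaling (0.25, adjusted p 0.000608), which raise fold changes in general by the shifts given above.

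NFE2 (ENSG00000123405.14, chromosome 12, 54292111 to 54301015, minus strand) had normalized counts of 4753, 4827 and 4680 in WT and 8121, 7410 and 7790 in Delta-TRRAP. Its Delta-TRRAP libraries were all higher, with an SD of 356 against 73.4 in WT. The fitted log2 change was 0.71 ± 0.05 (95% interval 0.600 to 0.819; edgeR adjusted p 8.69e-09), a fold of 1.64.

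GFI1B (ENSG00000165702.14, chromosome 9, 132944000 to 132991687, plus strand) encodes a repressor of both lineages that recruits LSD1. It had normalized counts of 1770, 1795 and 1808 in WT and 1494, 1486 and 1388 in Delta-TRRAP, all below WT. Its log2 fold change was -0.30 ± 0.05 (95% interval -0.408 to -0.188; edgeR adjusted p 0.000103), and with library size scaling -0.17 (adjusted p 0.01004). TSC1, which overlaps GFI1B on the opposite strand, moved the other way, by 0.34 ± 0.08 (edgeR adjusted p 0.0011).

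BCL11A (ENSG00000119866.22, chromosome 2, 60450520 to 60554467, minus strand), a repressor of the fetal globin genes, was at the floor of detection. It had 1, 1 and 1 counts in WT and 5, 2 and 2 in Delta-TRRAP, 3 against 9 in all, and was too low to be tested. Delta-TRRAP over WT was 3.02 (exact 95% interval from counting alone 0.754 to 17.4), so a difference was not detectable at this depth. Fitted with no filter on low counts, it had an adjusted p of 0.256 (edgeR).

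**Figure D3:**
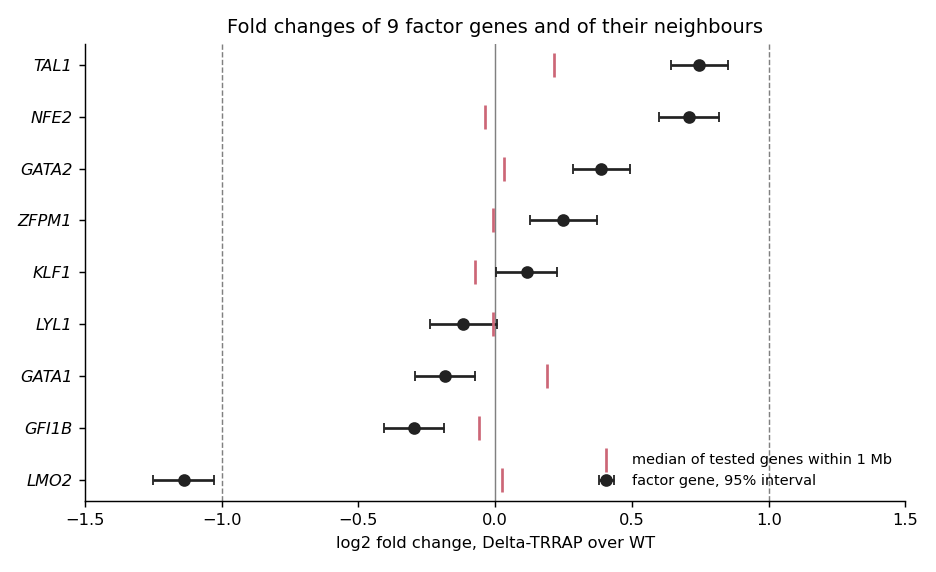
Log2 fold change of the 9 tested factor genes (points, bars give 95% intervals) and the median of all tested genes within 1 Mb on either side (red ticks), with dashed lines at a fold of 2. LMO2 lies beyond the dashed line at -1.14 while its neighbours have a median of 0.03, and TAL1 and NFE2 lie at 0.75 and 0.71.

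Since each line was 1 clone, the genes around each factor gene were examined. Of the 17 tested genes within 1 Mb of LMO2 the median log2 fold change was 0.03, and LMO2 lay 1.16 below it (difference -1.16, or -1.49 over only 6 genes within 500 kb). The 35 neighbours of NFE2 had a median of -0.039, so NFE2 lay 0.749 above it within 1 Mb and within 500 kb. TAL1 lay 0.53 above the median of its 21 neighbours (0.216), and 0.752 above that of the 9 within 500 kb. GATA1 lay below its 53 neighbours, whose median was 0.191 (difference -0.375). GATA2 lay 0.357 above the median of its 29 neighbours, but below that of the 12 within 500 kb, which was 0.519 (difference -0.131). KLF1, ZFPM1, GFI1B and LYL1 differed from their neighbours within 1 Mb by 0.189, 0.256, -0.241 and -0.108. The medians around the 9 genes within 1 Mb lay between -0.0739 and 0.216. Counting only neighbours with a mean normalized count of 100 or more, an alternative chosen after the data were seen, LMO2 differed from them by -1.09, NFE2 by 0.73 and TAL1 by 0.702 within 1 Mb. Within 500 kb the differences were -1.07 for LMO2 (4 genes), 0.734 for NFE2 (9 genes) and 1.04 for TAL1 (4 genes). On that count GATA1 differed from 30 neighbours within 1 Mb by -0.163 and GFI1B from 20 by -0.10, less than from all neighbours. GATA2 lay above them at both distances, by 0.495 over 18 genes within 1 Mb and by 0.357 over 7 within 500 kb, so its place below the nearer genes held only when the low ones were counted.

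To rank the factor genes against each other, counts were divided by exon length and expressed as TPM (length-scaled counts adding to the same total in every library). The length was that of all annotated exons of a gene merged, which can exceed that of the transcripts expressed. The order of genes, above all of close ones, depends on this choice. In WT, GATA1 was the most abundant at 408 ± 11.3 TPM (SD, n = 3), followed by KLF1 at 217 ± 7.0, NFE2 at 193 ± 2.94, LMO2 at 169 ± 2.85, TAL1 at 109 ± 3.80 and GATA2 at 103 ± 2.81. LYL1 followed at 82.3 ± 1.38, then GFI1B at 28.2 ± 0.594, ZFPM1 at 11.6 ± 0.452 and BCL11A at 0.0039 ± 0.00013. The ranges of neighbours in this order overlapped for TAL1 and GATA2 alone.

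In Delta-TRRAP the order was GATA1 at 371 ± 10.2 TPM, NFE2 at 326 ± 17.4, KLF1 at 243 ± 8.82, TAL1 at 189 ± 9.17 and GATA2 at 139 ± 1.14. LMO2 at 79.1 ± 1.99 and LYL1 at 78.4 ± 4.71 overlapped, the only such neighbours, with LMO2 the higher in 2 of 3 libraries. GFI1B (23.7 ± 1.66), ZFPM1 (14.2 ± 0.601) and BCL11A (0.0121 ± 0.00693) came last, as in WT. LMO2 went from the fourth place to the sixth, and NFE2 from the third to the second.

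**Figure D4:**
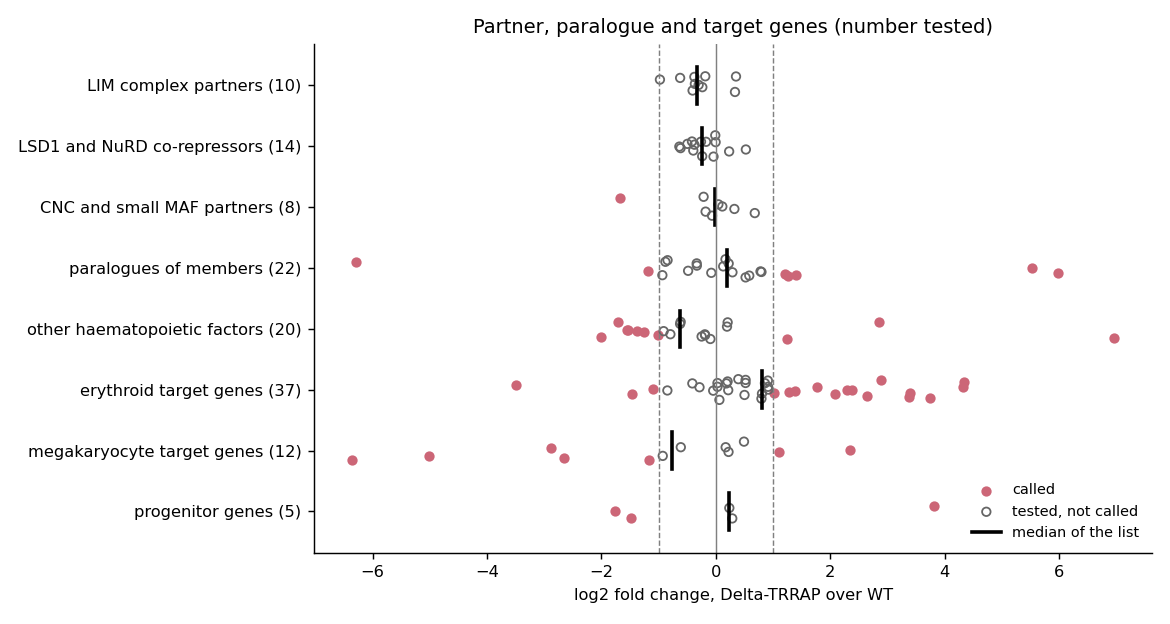
Log2 fold change (horizontal axis) of the tested genes of 8 lists of partners, paralogues and targets, 1 point per gene, filled where the gene was called changed, with the median of each list as a black bar and dashed lines at a fold of 2. The LIM complex partners and the co-repressors hold no filled point, and the erythroid targets reach 4.33.

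The partners of the TAL1 and LMO2 complex were mostly lower. Of 10 such genes (LDB1, the E proteins TCF3, TCF4 and TCF12, SSBP2, SSBP3, SSBP4, CBFA2T2, CBFA2T3 and SIN3A), 2 rose and 8 fell on the p-value, with a median of -0.33 against 0.03 over all genes tested. All but CBFA2T2 averaged 1000 normalized counts or more, where the median of all genes was -0.14 and 3121 of 6804 fell. With library size scaling the list median was -0.20 and that of all genes tested 0.168. None reached the fold threshold with edgeR, DESeq2 or limma-voom. Of all genes averaging 1000 or more, edgeR called 6.31%. All 10 had an unadjusted p under 0.05 in edgeR, as had 13452 of the 19114 genes tested and 5306 of those 6804. The genes named from this list were chosen after their values were seen. TCF3, which encodes the E protein E2A, had normalized counts of 5586, 5699 and 5647 in WT and 2869, 2877 and 2846 in Delta-TRRAP, a log2 fold change of -0.98 ± 0.05 just short of the threshold. TCF4, another E protein gene, changed by 0.33 ± 0.05, SSBP2 by 0.35 ± 0.05, and the co-repressor gene CBFA2T3 by -0.41 ± 0.05. LDB1, the partner of LMO2, changed by -0.19 ± 0.05 (edgeR adjusted p 0.00397), and did not pass without WT replicate 3 (-0.17, adjusted p 0.0192), with the block (adjusted p 0.014), or with upper quartile or library size scaling (-0.086 and -0.054).

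Of 14 LSD1 and NuRD genes, the co-repressors used by GFI1B and BCL11A, 1 rose, 8 fell and 5 did not pass, with a median of -0.25 (-0.15 and -0.12 with upper quartile and library size scaling, where all genes tested had 0.131 and 0.168). All but GATAD2B averaged 1000 normalized counts or more, the level at which all genes had a median of -0.14. The share that passed was 64.3%, against 58.3% of all genes tested and 68% of all genes at that level. None of the 14 was called by edgeR, DESeq2 or limma-voom, and edgeR called 6.31% of all genes at that level. In edgeR 11 of the 14 had an unadjusted p under 0.05, as had 13452 of the 19114 genes tested and 5306 of the 6804 at that level. Of these genes, chosen after their values were seen, KDM1A, which encodes LSD1, changed by -0.50 ± 0.05, its partner gene RCOR1 by -0.64 ± 0.06, the deacetylase gene HDAC2 by -0.62 ± 0.05, and MTA3, the one that rose, by 0.52 ± 0.05. KDM1A had normalized counts of 11912, 12470 and 12716 in WT and 8777, 9109 and 8366 in Delta-TRRAP, with no overlap.

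Of 8 genes of the CNC and small MAF families, from which NFE2 takes its partners and rivals, 2 rose, 2 fell and 4 did not pass, with a median of -0.013 that turned sign without Delta-TRRAP replicate 2 (0.032) and was -0.060 without Delta-TRRAP replicate 1. It was 0.089 and 0.12 with upper quartile and library size scaling. Of the 8, 50% passed the p-value and 12.5% were called, against 58.3% and 22.6% of all genes tested, whose median was 0.03. NFE2L3, a CNC factor gene, was called lower (-1.67 ± 0.06, 1691 ± 118 to 531 ± 11.3 normalized counts). BACH1 and MAFG, which rose, were named after their values were seen. BACH1, a haem-sensing repressor at NFE2 sites, changed by 0.68 ± 0.06 and MAFG, a small MAF gene, by 0.32 ± 0.06.

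Paralogues of the factor genes moved in both directions. Of 26 listed, 22 were tested, 5 were called higher and 2 lower, with a median of 0.19 (0.30 and 0.33 with upper quartile and library size scaling). The called share was 31.8%, against 22.6% of all genes tested, whose median was 0.03. KLF12, a repressor of the KLF family, had normalized counts of 8, 9 and 11 in WT and 391, 505 and 397 in Delta-TRRAP, a log2 fold change of 5.52 ± 0.19. GATA5 had 108 counts over the WT libraries and 1 over the Delta-TRRAP libraries, a WT to Delta-TRRAP ratio of 107 whose exact 95% bounds from counting alone are 18.8 and 4280. LMO3, a paralogue of LMO2, went the other way, from 1 count in WT to 86 (ratio 86.6, bounds 15.1 and 3460). On the p-value alone 8 paralogues rose and 7 fell, or 68.2% of those tested, against 58.3% of all genes tested. Among those chosen after their values were seen, KLF3, a repressor whose gene KLF1 activates, changed by 0.80 ± 0.06, GFI1 by -0.94 ± 0.14 and ZFPM2 by -0.88 ± 0.07.

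Other factors of blood development were mostly lower. Of 22 listed, 20 were tested, 3 were called higher, among them HLF and FOXO3, and 7 lower, and on the p-value alone 4 rose and 13 fell, with a median of -0.62. The called share was 50% and the share passing 85%, against 22.6% and 58.3% of all genes tested, whose median was 0.03. HLF, a stem cell factor gene, changed by 2.86 ± 0.27 at low counts (9.95 ± 4.62 to 73.15 ± 11.4). RUNX1, which acts with GATA1 and TAL1 in megakaryocytes, fell from 5861, 6158 and 6407 to 1460, 1618 and 1487, a log2 fold change of -2.01 ± 0.06. MYB, SPI1 and FOXO3 were named after their values were seen. MYB, a progenitor factor gene, changed by -1.38 ± 0.05, the myeloid factor gene SPI1 by -1.71 ± 0.08, and FOXO3, which acts in maturing red cells, by 1.25 ± 0.06.

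The 37 erythroid genes commonly given as targets of these factors were mostly higher. Of them 14 were called higher and 3 lower, 25 rose and 6 fell on the p-value, and the median was 0.80. In all 45.9% were called and 83.8% passed, against 22.6% and 58.3% of all genes tested, whose median was 0.03. SLC4A1, which encodes the anion exchanger band 3, had normalized counts of 218, 215 and 211 in WT and 4482, 4440 and 4031 in Delta-TRRAP, a log2 fold change of 4.33 ± 0.07. The carbonic anhydrase gene CA2 changed by 4.32 ± 0.15 (13.3 ± 1.79 to 268 ± 4.64) and ALAS2 by 3.75 ± 0.06 (1241 ± 81.8 to 16645 ± 515). The 3 called lower, named after their values were seen, were AHSP, the chaperone of alpha-globin (-3.50 ± 0.16), the delta-globin gene HBD (-1.46 ± 0.07) and TFRC (-1.09 ± 0.06). TFRC has by far the most counts of the list, not divided by length, at 192094 ± 2051 in WT and 90173 ± 5302 in Delta-TRRAP, and carries the lower sum of the erythroid markers given above. HBA1 with HBA2 and HBG1 with HBG2 are near-identical copies, and since reads mapping to several places were dropped their counts are uncertain.

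Of 21 megakaryocyte genes 12 were tested, and 6, among them GP1BA, GP9 and PF4, were at 0 in every library. Among those tested, 2 were called higher and 5 lower, and the median was -0.77. The called share was 58.3%, against 22.6% of all genes tested, whose median was 0.03. RAB27B, a granule transport gene, had normalized counts of 6077, 5818 and 5750 in WT and 198, 176 and 171 in Delta-TRRAP, a log2 fold change of -5.01 ± 0.07. MMRN1, which encodes a platelet granule protein, changed by -6.36 ± 0.21 (229 ± 9.51 to 2.69 ± 0.640), and ITGA2B, the platelet integrin subunit, by -2.89 ± 0.10 (661 ± 31.6 to 89.3 ± 14.4). The 2 called higher, named after their values were seen, were the platelet tubulin gene TUBB1 (2.35 ± 0.07) and the thrombospondin gene THBS1 (1.10 ± 0.11). The adjusted p of every change named in these lists was under 0.01 by edgeR.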

How the data were processed

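RNA-seq of 6 libraries (3 WT, 3 Delta-TRRAP) was analysed, with groups and replicate numbers taken from sample titles. The authors deposited read counts per gene, made with STAR on hg38 (uniquely mapped reads) and HTSeq 2.0.2 with reverse strand on GENCODE genes. The counts were not normalized. Their table of normalized values, which also had 3 columns of other samples, and their table of fold changes and p-values were not used here. The study describes the replicates as biological, each line being 1 clone, so p-values measure the spread within 1 clone per group.

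Genes averaging at least 5 normalized counts (19114 of 34998 with a count) were fitted with edgeR 4.0.16 in R 4.3.3 (TMM, quasi-likelihood F test, Benjamini-Hochberg over all genes tested). The thresholds, an adjusted p of 0.01 and a fold of 2, follow the study, which used DESeq2. For normalized counts, each count was divided by its library's TMM-adjusted size, set to a geometric mean of 1 over the 6 libraries. Errors are SD for levels and SE for log2 fold changes. The fit was tested on simulated data. Ratios used an exact permutation test, and intervals on small counts are exact binomial and cover counting error only. Totals of 35076835 to 42616061 counts per library set the precision. Positions, strands and exon lengths came from GENCODE release 44 (19041 of 19114 genes matched), later than the release of the authors.

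The 10 genes and the lists were chosen with earlier results of these data known. All 10 are named, with the 3 called genes of largest change per list, the 2 most counted genes per marker list, EP400, TRRAP and KAT5, and tested genes that overlap a factor gene. Genes outside this rule are marked. A few genes that the rule picks are not reported here. Alternatives were DESeq2 1.42.0, limma-voom (limma 3.58.1), other scalings, filters and thresholds, a replicate block, and leaving out each library. Numbers were checked for pairing: same-numbered libraries had correlations of deviations of 0.0821, -0.0806 and -0.184 over 11459 genes, so the numbers did not pair them.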

Additional observations from a re-analysis of the deposited data

How the results depend on the processing

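LMO2, TAL1, NFE2 and GATA2 kept their direction and side of the threshold in all 14 alternative fits, while GATA1 did not in 7, KLF1 and ZFPM1 in 2 each, and GFI1B and LYL1 in 1 each (values above; LYL1 turned to 0.017 with library size scaling). The number of factor genes called was 1 in the fit reported and under every tool, scaling, filter and left-out library, 3 at a fold of 1.5, and 7 with no fold threshold. With the replicate number as a replicate block it was 1 as well, 4184 genes were called in all against 4322, and the block moved the factor genes across the p-value for GATA1 alone. Scaling to the upper quartile or to library size raised list medians: LIM partners -0.23 and -0.20, LSD1 and NuRD -0.15 and -0.12, CNC and small MAF 0.089 and 0.12, paralogues 0.30 and 0.33, other factors -0.52 and -0.49, erythroid 0.91 and 0.94, megakaryocyte -0.67 and -0.64, progenitor 0.33 and 0.37. With no count filter the medians were -0.43 (other factors), -0.61 (megakaryocyte) and 1.08 (progenitor, 6 genes called), and with a minimum mean of 50 they were -0.71, -0.93 and -1.48, with 3 paralogues called. A minimum of 50 also left 60.0% of all called genes higher, against 73.1%. Leaving out each library gave medians of -0.28 to -0.24 (LSD1 and NuRD), -0.060 to 0.032 (CNC and small MAF), -0.71 to -0.56 (other factors), -0.87 to -0.68 (megakaryocyte) and 0.015 to 0.27 (progenitor). Among the other genes named, the sign turned without 1 library for EP400 (range -0.026 to 0.29), TRRAP (-0.12 to 0.18), CD3E (-0.052 to 0.24) and COL1A1 (-0.23 to 0.39), of which EP400 passed the test without Delta-TRRAP replicate 3. The causes were not tested.

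The 3 libraries per group came from 1 clone each, so a difference between clones and an effect of the deletion cannot be told apart. The exact tests of the ratios cannot fall below p = 0.1. Counts per gene do not separate transcript isoforms, protein was not measured, and BCL11A was too low to compare.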

Other observations

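Genes of early blood progenitors were mostly too low to test. Of 12 listed (KIT, CD34, FLT3, PROM1, HOXA9, SPINK2, KDR, TIE1, TEK, ANGPT1, CD44 and MYCN) 5 were tested, of which 1 was called higher and 2 lower, with a median log2 fold change of 0.23 (0.015 without WT replicate 2 and 0.12 without Delta-TRRAP replicate 1). The called share was 60% of the 5, against 22.6% of all genes tested, whose median was 0.03. ANGPT1, which encodes a ligand of the TEK receptor, changed by -1.76 ± 0.05 (8203 ± 233 to 2422 ± 75.8 normalized counts, SD, n = 3). TEK itself changed by 3.80 ± 0.39 at low counts (2.30 ± 1.43 to 34.0 ± 4.72). KIT, the stem cell factor receptor gene and a GATA2 target that GATA1 represses in erythroid cells, changed by -1.48 ± 0.11 (225 ± 10.01 to 80.8 ± 8.80). The adjusted p of ANGPT1, of TEK and of KIT was under 0.01 by edgeR.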
